A study of Mus musculus with 6 samples.

Results

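The genes described here are the mouse zinc finger protein genes whose symbols begin with Zfp and a number. They were chosen by that symbol, as the only gene symbol of a row in the deposited value table, and by a mean log2 signal over all 6 arrays at or above the 30th percentile of all named genes (log2 4.16). The signal was the only measured value that this rule used. The members were chosen with earlier results of these data known, and the use of single-symbol rows was settled after their values had been seen. Of 45 Zfp genes with a value, 41 met the rule, among 5233 genes tested in all. The members numbered 4, 19, 5 and 13 on chromosomes 1, 2, 3 and 4, the chromosomes analysed here. The members just inside the limit were Zfp663 and Zfp133-ps (mean log2 signals 4.43 and 4.67), and those just outside were Zfp385b and Zfp831 (4.09 and 3.62). Zfp352 and Zfp804a also lay below it, and RefSeq lists 23 further Zfp genes on these chromosomes that have no row of their own here.

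RNA came from Melan-a, a pigmented melanocyte line of C57BL/6 mice that grows without limit in culture, kept in medium with the phorbol ester TPA. The cells were transfected either with siDicer, an siRNA that targets Dicer, or with siScr, the control, and the titles give 48 h as the time of collection, while the treatment protocol describes a shorter course. Each group had 3 Affymetrix Clariom D arrays, 1 each from cells at passages 47, 54 and 56, and every RNA had an integrity number of 10.0. Both groups are thus samples of 1 line exposed to transfection reagents, and siScr is the only control. Array medians lay between log2 4.63 and 4.68 and correlations between arrays between 0.993 and 0.997. Dicer1 was not analysed here, so these values give no check of the knockdown. All 4 melanocyte markers with a value (Tyrp1, Slc24a5, Pax3 and Slc7a11, of 11 listed) were above the signal limit, and their summed log2 signals were 38.6 to 39.6 in siDicer and 39.4 to 41.5 in siScr. Of these, the transporter Slc7a11 differed most, at 5.26 in siDicer and 6.65 in siScr at passage 47, and its part in the results below was not tested. Markers of other cell types were above the limit in 2 of 6 leukocyte, 2 of 5 keratinocyte, 2 of 3 fibroblast and 1 of 4 endothelial genes with a value, and the leukocyte marker Ptprc was below it on every array. The highest were keratinocyte Flg (means 6.89 in siDicer and 6.92 in siScr) and fibroblast Col3a1 (6.29 and 6.34). Both lay above Slc7a11 (5.33 and 5.92).

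Dicer, a ribonuclease, makes mature microRNAs from their hairpin precursors, and these lower the stability and translation of messenger RNAs. Most Zfp genes encode proteins with fingers of the C2H2 type, in which 1 zinc ion holds each finger and rows of fingers read DNA. Many also carry a KRAB domain, which recruits the co-repressor Trim28 and, through it, the histone methyltransferase Setdb1, and such proteins are known for silencing transposable elements. KRAB zinc finger genes arose by repeated duplication and often lie side by side, and chromosomes 2 and 4 of the mouse hold such clusters.

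A Zfp gene was counted as lying in a cluster when at least 2 other Zfp genes stood among the 5 protein-coding genes on each side of it in RefSeq order. This applied to 9 members, Zfp937, Zfp971, Zfp442, Zfp345, Zfp972 and Zfp931 on chromosome 2 and Zfp980, Zfp600 and Zfp991 on chromosome 4. The definition was settled after the values had been seen, with an earlier one that asked for 3 such neighbours also reported. RefSeq promoters (GRCm38.p6, 250 bases before to 50 after the start site) were found for 34 of the 41 members and for 8 of these 9.

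The promoters of the clustered genes are shown because most of these genes had a like order of values over the arrays, given further on. Those on chromosome 2 had a run of 14 bases in common, in capitals, identical in 5 of 6. The windows lie at chr2:150217989-150218088 and chr2:178023155-178023254 on the plus strand, and at chr2:150451524-150451623, chr2:150485109-150485208, chr2:177925689-177925788 and chr2:178078485-178078584 on the minus strand, all upstream of the start site. Zfp972 differs from the run by C7T, with positions counted from 1 at the 5′ end of the capitals.
Zfp937: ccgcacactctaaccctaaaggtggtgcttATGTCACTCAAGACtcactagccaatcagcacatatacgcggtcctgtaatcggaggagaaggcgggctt
Zfp442: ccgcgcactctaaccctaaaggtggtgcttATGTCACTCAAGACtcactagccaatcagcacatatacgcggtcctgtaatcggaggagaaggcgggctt
Zfp345: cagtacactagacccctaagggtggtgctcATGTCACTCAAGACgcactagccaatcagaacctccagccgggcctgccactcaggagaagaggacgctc
Zfp971: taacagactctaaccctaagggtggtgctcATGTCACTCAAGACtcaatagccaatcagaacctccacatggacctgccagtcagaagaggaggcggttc
Zfp931: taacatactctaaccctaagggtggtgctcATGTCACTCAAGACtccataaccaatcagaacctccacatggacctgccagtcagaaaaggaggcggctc
Zfp972: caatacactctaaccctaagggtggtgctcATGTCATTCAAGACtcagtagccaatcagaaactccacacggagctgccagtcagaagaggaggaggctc

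On chromosome 4, the promoters of Zfp980 (chr4:145670578-145670696, plus strand) and Zfp600 (chr4:146156714-146156826, plus strand) shared a run of 65 bases, in capitals, also upstream of the start site.
Zfp980: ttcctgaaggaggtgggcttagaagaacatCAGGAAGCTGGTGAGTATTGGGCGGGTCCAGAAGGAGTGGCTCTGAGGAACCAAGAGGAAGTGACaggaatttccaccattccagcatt
Zfp600: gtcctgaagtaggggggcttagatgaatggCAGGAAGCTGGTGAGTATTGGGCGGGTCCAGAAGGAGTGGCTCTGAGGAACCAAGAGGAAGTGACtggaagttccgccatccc

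In global alignments of the promoters, the median identity was 62.1% over the 15 pairs of clustered chromosome 2 genes and 49.6% over all 561 pairs of members. It was 88.6% for Zfp980 and Zfp600 and reached 90.1% for Zfp442 and Zfp937. The coding parts of these genes were not compared. A probe may read more than 1 of them, which was not tested, and their values are uncertain to that extent.

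Over the whole group, the Zfp genes differed little between siDicer and siScr. In the comparison of siDicer with siScr, 20 members were higher and 21 lower, with a median log2 difference of -0.015, against -0.0087 over all tested genes. None of the 41 passed limma at an adjusted p of 0.05, over all tested genes 0.0191% did (1 gene), and none passed with passage as a replicate block, where 1.89% of all tested genes did. The smallest adjusted p among the members was 0.254 without the block and 0.11 with it, both for Zfp292 (limma). At an unadjusted p of 0.05, limma without the block called 3 members (7.32%, against 8.62% of all tested genes) and with it 5 (12.2%, against 13.9%). The differences ran from -0.26 to 0.19, and the 95% interval of every member lay within 0.5 of 0, the widest bounds being -0.48 and 0.46. The median absolute difference was 0.086 for the members and 0.064 for all tested genes.

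**Figure D1:**
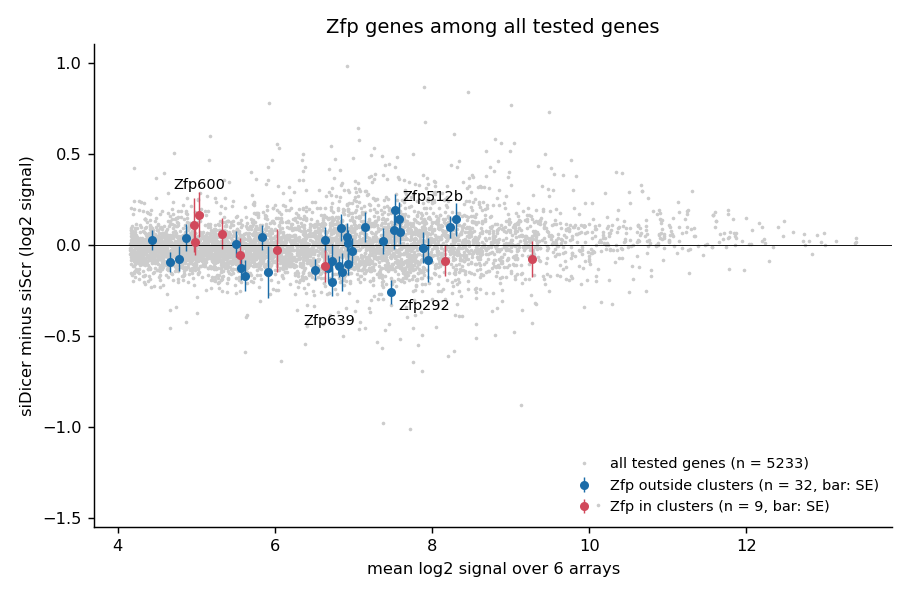
Each gene's mean log2 signal over 6 arrays (horizontal) and its siDicer minus siScr difference in log2 signal (vertical), with all 5233 tested genes in grey, the 32 Zfp genes outside clusters in blue and the 9 in clusters in red, and bars for the standard error from limma. The Zfp genes lie between -0.26 (Zfp292) and 0.19 (Zfp512b), inside the range of all tested genes.

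The 6 arrays gave 9 Zfp genes whose siDicer and siScr values did not overlap, 2 higher and 7 lower in siDicer. They make up 22.0% of the members, against 14.7% of all tested genes, where 355 were higher and 412 lower. The sign was the same at all 3 passages for 16 members, 7 higher and 9 lower, and for 36.4% of all tested genes.

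Zfp292, a large nuclear zinc finger protein expressed in brain and pituitary, had the largest difference of any member. Its log2 signals at passages 47, 54 and 56 were 7.29, 7.33 and 7.42 in siDicer and 7.59, 7.65 and 7.59 in siScr. All siDicer arrays lay below all siScr arrays, and the gaps at the passages were -0.29, -0.32 and -0.17. The mean difference was -0.26 ± 0.066 (SE, interval -0.41 to -0.11), which did not pass in limma over all genes.

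Zfp639, also on record as ZASC1, gave 6.62, 6.63 and 6.64 in siDicer and 6.96, 6.70 and 6.83 in siScr, with the siDicer values almost level and the siScr value of passage 47 the highest. Its difference was -0.20 ± 0.077 (SE, limma, adjusted p = 0.508 without and 0.256 with the block). Zfp37, a KRAB zinc finger protein, measured 5.35, 5.62 and 5.62 in siDicer and 5.62, 5.70 and 5.77 in siScr. Its highest siDicer value lay just under its lowest siScr value, and the difference was -0.17 ± 0.087 (SE, limma, adjusted p = 0.66 without and 0.289 with the block). Zfp189, another KRAB protein, was at 6.65, 6.69 and 6.50 in siDicer and 6.82, 6.71 and 6.71 in siScr, also without overlap, though passage 54 differed by only -0.017.

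The other genes that were lower without overlap were Zfp267, Zfp451 and Zfp133-ps, which RefSeq lists as a pseudogene. Zfp451, a ligase that attaches the modifier SUMO to proteins, had signals of 6.74, 6.79 and 6.76 in siDicer and 6.85, 6.86 and 6.92 in siScr. For Zfp267 they were 6.46, 6.46 and 6.41 in siDicer and 6.59, 6.53 and 6.62 in siScr. Both genes were lower at each passage, with mean differences of -0.12 and -0.13 and adjusted p values of 0.657 and 0.59 (limma). With passage as a block, limma gave adjusted p values of 0.444 and 0.388. Zfp133-ps was at 4.65, 4.65 and 4.56 in siDicer and 4.65, 4.76 and 4.72 in siScr, nearly level at passage 47.

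Higher in siDicer without overlap were Zfp512b and Zfp106. Zfp512b, whose human counterpart binds the NuRD co-repressor complex, had log2 signals of 7.79, 7.59 and 7.50 in siDicer and 7.45, 7.42 and 7.42 in siScr. The siScr arrays were nearly level and the siDicer array of passage 47 was the highest, so that the gap was 0.33 there and 0.078 at passage 56. The mean difference of 0.19 ± 0.084 (SE, limma, adjusted p = 0.576 without and 0.27 with the block) was the largest positive one with all arrays. Without siDicer at passage 47 it was 0.11. Zfp106, an RNA-binding protein needed in motor neurons and muscle, was at 8.27, 8.29 and 8.26 in siDicer and 8.18, 8.20 and 8.13 in siScr. Its gaps at the passages, 0.086, 0.088 and 0.13, were alike, and their mean was 0.10 (limma, adjusted p = 0.72 without and 0.528 with the block).

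**Figure D2:**
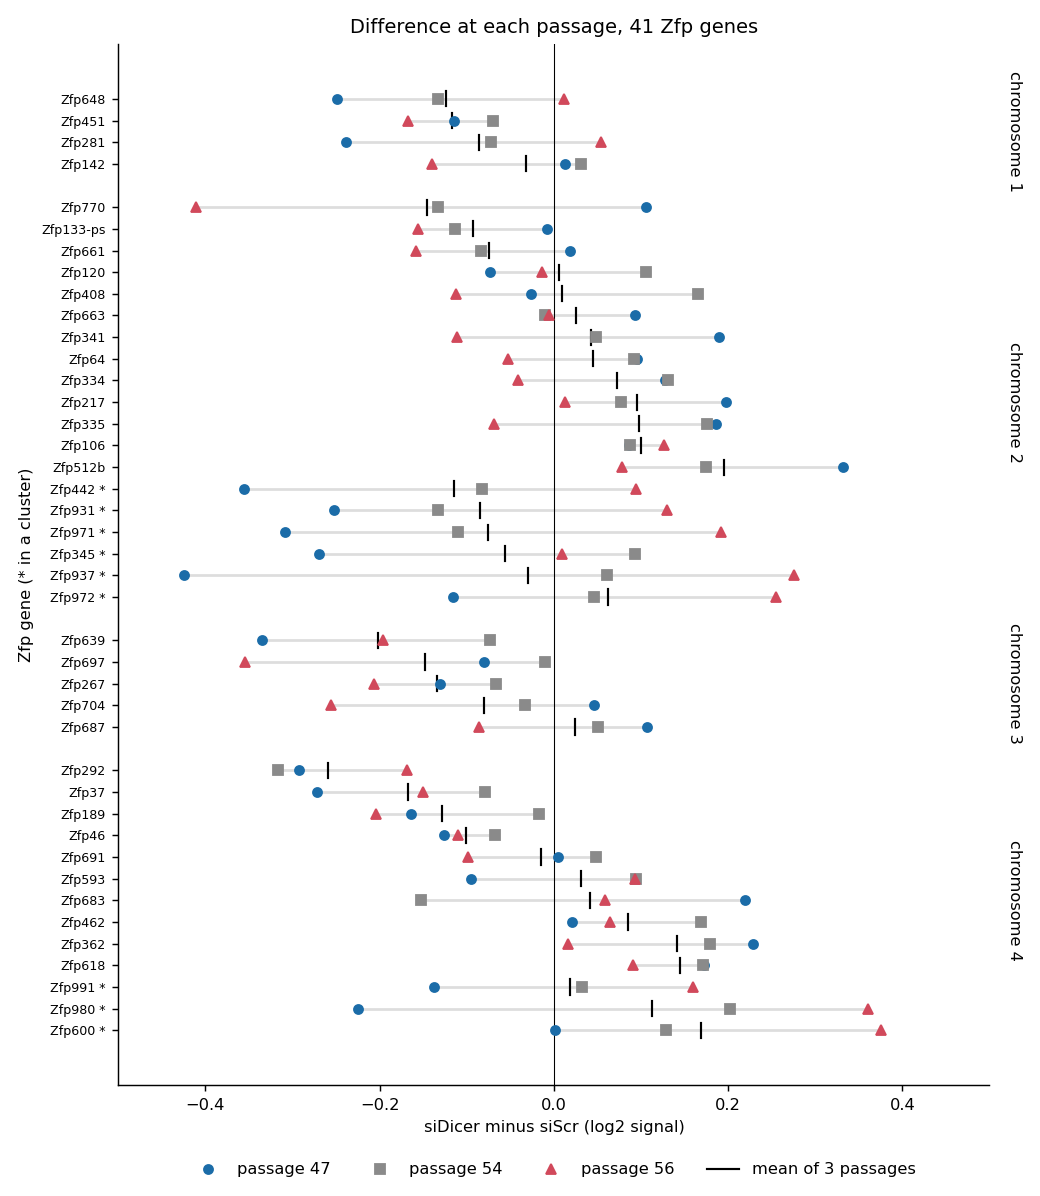
Difference in log2 signal, siDicer minus siScr, for each of the 41 Zfp genes (vertical axis, by chromosome, a star for genes in a cluster), with 1 point for each passage and a tick for the mean of the 3. In every clustered gene the point of passage 47 lies left of that of passage 56, with Zfp292 left of 0 and Zfp106 right of 0 at every passage.

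Zfp217, Zfp335 and Zfp281 act on chromatin or on developmental genes, and the last 2 of them were named after their values were seen. Zfp217, which works with the CoREST complex, was at 6.99, 6.80 and 6.88 in siDicer and 6.79, 6.73 and 6.87 in siScr, higher in siDicer at every passage, with overlapping groups. Zfp335, part of a histone H3 lysine 4 methyltransferase complex, measured 7.32, 7.17 and 7.09 in siDicer and 7.14, 6.998 and 7.16 in siScr, higher at passages 47 and 54 but not at 56. Zfp281, a regulator of pluripotency genes, was at 6.52, 6.79 and 6.73 in siDicer and 6.76, 6.86 and 6.67 in siScr, with the largest gap at passage 47. Their mean differences were 0.096, 0.098 and -0.086, each with a 95% interval that included 0.

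Zfp462, a partner of the Ehmt1 and Ehmt2 methyltransferases, differed more between passages than between groups. Its signals were 7.44, 7.78 and 7.46 in siDicer and 7.42, 7.61 and 7.39 in siScr, highest at passage 54 in both groups. Zfp618, which binds the 5-hydroxymethylcytosine reader Uhrf2, gave 7.75, 7.52 and 7.67 in siDicer and 7.58, 7.35 and 7.58 in siScr, lowest at passage 54 in both groups. The gap was positive at each passage, and its mean of 0.15 had a standard error of 0.094 without and 0.061 when passage entered as a block, with adjusted p values of 0.736 and 0.341 in limma. It was 0.071 with array weights and 0.068 without siScr at passage 54.

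Zfp362 was among the 5 members with the highest signal, with 8.52, 8.27 and 8.32 in siDicer and 8.29, 8.09 and 8.31 in siScr. It was higher in siDicer at every passage, by 0.23, 0.18 and 0.016, and the groups overlapped. Zfp704, another of those 5, was at 8.13, 7.76 and 7.84 in siDicer and 8.08, 7.79 and 8.09 in siScr, with the largest gap at passage 56 and a mean difference of -0.081. Zfp770 had the largest negative gap of any member at passage 56, where its log2 signal was 5.64 in siDicer and 6.05 in siScr. At passage 47 it was higher in siDicer by 0.11, so that the mean of -0.15 had a 95% interval of -0.48 to 0.18.

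Zfp697 and Zfp46 were also lower at all passages. The clustered gene Zfp600, given with its neighbours, was higher at all of them by sign, though by only 0.0016 at passage 47. Zfp697 differed by -0.081, -0.010 and -0.35 at passages 47, 54 and 56, and Zfp46 by -0.13, -0.067 and -0.11. Zfp648 had the largest difference on chromosome 1, -0.12 ± 0.067 (SE), and was lower at passages 47 and 54 and level at 56 (0.012). Zfp120, taken up below, and the other members not described by name lay outside the clusters, with differences between -0.075 and 0.072.

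The clustered genes differed between the groups in opposite directions at the first and last passage. At passage 47, 8 of the 9 were lower in siDicer (median difference -0.25), at passage 54 the median was 0.046, and at passage 56 all 9 were higher (median 0.19). In the 32 members outside clusters these medians were 0.016, 0.011 and -0.093, and over all tested genes -0.0053, -0.0013 and -0.019. The 32 include Zfp120, named after its values were seen and left out of the counts of named genes below. Gm14139 stands next to both Zfp120 and Zfp937, and their promoters were 72.0% identical. With 1 Zfp neighbour, Zfp120 fell outside the cluster rule. It differed by -0.074, 0.11 and -0.014, and so was lower in siDicer at passages 47 and 56. Lower at passage 47 and higher at passage 56 were 11 of the 41 members, 26.8% against 21.8% of all tested genes, and 8 of these 11 were clustered genes. The opposite order was also found in 11 members, 26.8% against 25.4% of all tested genes, and none of these was a clustered gene. Averaged over passages the clustered genes differed by a median of -0.029, and none passed limma in either fit. With at least 3 Zfp neighbours asked for, 5 genes were left in clusters, 4 of them lower at passage 47 and higher at passage 56, with medians of -0.14, 0.061 and 0.28.

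Zfp937, on chromosome 2, had the widest such swing. Its log2 signals at passages 47, 54 and 56 were 5.79, 6.06 and 6.19 in siDicer and 6.22, 6.002 and 5.91 in siScr. The siDicer arrays were higher at each later passage and the siScr arrays lower, and the gaps were -0.43, 0.061 and 0.28. Zfp442, whose promoter was the most like that of Zfp937, was at 6.46, 6.59 and 6.70 in siDicer and 6.82, 6.67 and 6.61 in siScr, in the same order. Zfp345, next to Zfp442 in RefSeq order, measured 5.33, 5.59 and 5.65 in siDicer and 5.60, 5.50 and 5.64 in siScr, with siDicer passage 47 the lowest array and a gap of only 0.010 at passage 56.

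Zfp971 and Zfp931 are neighbours at the far end of chromosome 2 and were among the 5 members with the highest signal. Zfp971 had 9.10, 9.17 and 9.43 in siDicer and 9.41, 9.28 and 9.24 in siScr, and Zfp931 8.05, 8.04 and 8.27 in siDicer and 8.30, 8.17 and 8.14 in siScr. In both, siScr was the higher group at passages 47 and 54 and siDicer at passage 56. Zfp972 lay at 5.26, 5.29 and 5.54 in siDicer and 5.38, 5.24 and 5.28 in siScr, where siDicer passage 56 stood above the other 5 arrays.

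On chromosome 4 passage 56 was again the highest of the siDicer arrays. The clustered genes there had low mean log2 signals, 4.97 (Zfp980), 5.03 (Zfp600) and 4.98 (Zfp991), against array medians of 4.63 to 4.68. Zfp980 was at 4.65, 5.11 and 5.31 in siDicer and 4.87, 4.91 and 4.95 in siScr, with siScr almost level. Zfp600, which shares the 65-base promoter run with it, was at 4.85, 5.14 and 5.37 in siDicer and 4.84, 5.01 and 4.996 in siScr, without a gap at passage 47 and with one of 0.38 at passage 56. Zfp991 measured 4.97, 4.97 and 5.03 in siDicer and 5.11, 4.94 and 4.87 in siScr, with siDicer nearly level and siScr lower at each later passage.

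Within the siDicer group, passage 47 was below passage 56 in 9 of 9 clustered genes, against 48.7% of all tested genes. Within siScr, passage 47 was above passage 56 in 6 of the 9, a count for which no share over all tested genes is given. The siDicer array of passage 47 was the lowest of the 6 arrays in 5 clustered genes (22.0% of all tested genes), and that of passage 56 the highest in 5 (15.7%). A limma fit with a term for the change of the siDicer minus siScr difference with passage, added after this order had been seen, called 0 of the 41 members at an adjusted p of 0.05, as it did 0% of all tested genes. At an unadjusted p of 0.05 it called 3 members, the clustered genes Zfp937, Zfp980 and Zfp442, 7.32% against 3.46% of all tested genes. The term was added because of the order in these same genes, so the 3 calls are a description and no support for it. From passage 47 to 56 this fitted change was 0.68 ± 0.15 for Zfp937, 0.58 ± 0.14 for Zfp980 and 0.42 ± 0.15 for Zfp442 (SE, limma, each with an adjusted p of 1.00). The change was positive in all 9 clustered genes (median 0.33) and in 12 of the 32 others (median -0.084). Over all tested genes it was positive in 2607 of 5233 (median -0.00082). Each passage had 1 array in a group, so passage cannot be told apart from the single culture that stood for it.

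**Figure D3:**
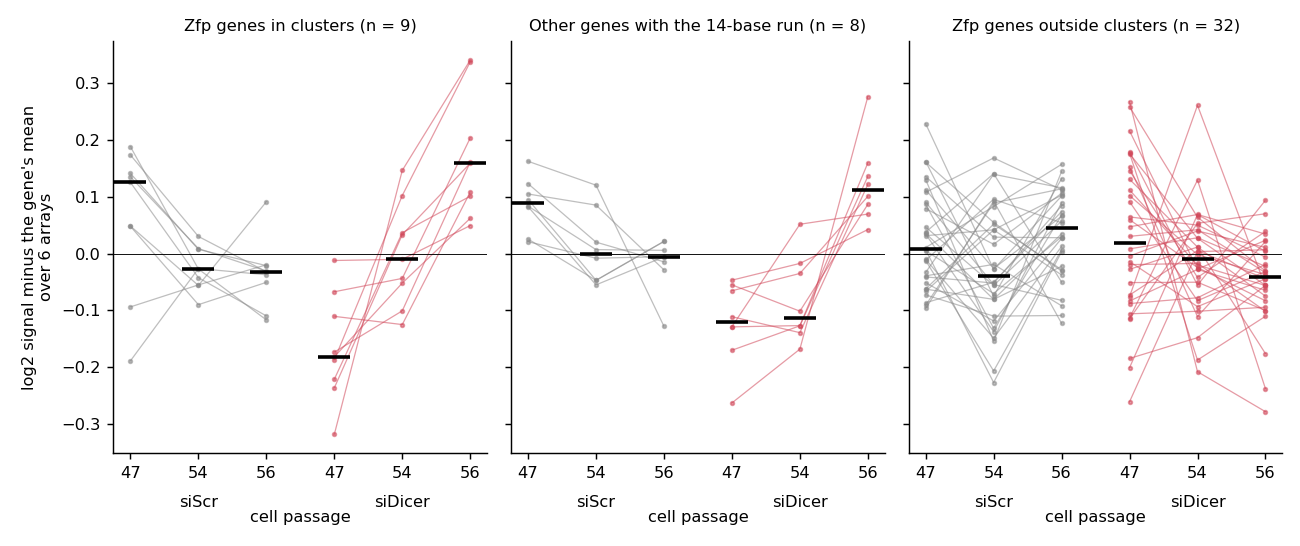
Log2 signal of each gene minus its mean over the 6 arrays (vertical) by group and cell passage (horizontal) for 9 Zfp genes in clusters, 8 other genes with the 14-base promoter run, and 32 Zfp genes outside clusters, with thin lines for genes and black bars for medians. In the first 2 panels the siDicer median is lowest at passage 47 and highest at passage 56, at -0.18 and 0.16 in the first.

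The 14-base run was not limited to genes called Zfp. Among 27025 genes with a promoter in the RefSeq table, 38 (0.141%) held it on either strand, 34 of them on chromosome 2. Of the 38, 13 were tested here, 5 Zfp genes and 8 with other symbols, among them Gm14393, Gm14403, Gm14325 and 2210418O10Rik. The run was looked for in view of the order of the clustered Zfp genes, 5 of which hold it, so their order is a description. The 8 other genes were also lower in siDicer at passage 47 and higher at passage 56, an order seen in 21.8% of all tested genes. All 13 lie on chromosome 2, and Gm14124 and Gm14325 stand next to Zfp937 and Zfp972. The 8 are therefore not a set apart from the clusters, and whether they belong to the same gene family was not tested. The 8 hold the same 14-base run, but the rest of their promoters was not compared with those of the Zfp genes. Whether probes are shared was not tested for the 8 either, so their values carry the same doubt. The median differences of the 13 at passages 47, 54 and 56 were -0.25, -0.082 and 0.13, and for the 8 genes that are not Zfp they were -0.18, -0.094 and 0.11. The run was picked out after these values had been seen, as the longest in at least 5 of the 6 promoters, and the longest in all 6 has 9 bases.

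Gm14393 had the widest swing of the 8, with 8.20, 8.29 and 8.74 in siDicer and 8.63, 8.58 and 8.33 in siScr. Gm14325, next to Zfp972 in RefSeq order, was at 8.96, 9.002 and 9.27 in siDicer and 9.23, 9.21 and 9.10 in siScr. Gm14124, next to Zfp937, measured 5.68, 5.86 and 5.88 in siDicer and 5.83, 5.80 and 5.80 in siScr, with smaller gaps in the same order. These 3 were named after their values were seen. None of the 13 passed limma in either fit.

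Promoters of the clustered genes held fewer CpG pairs than those of the other members, with a median of 4 in 300 bases over 8 genes against 17.5 over 26, and 7 over all genes in the table. Of 9 short motifs searched on both strands of the promoters, some of them chosen after the sequences had been seen, CCAAT was present in 8 of 8 clustered promoters, in 21 of 34 members (61.8%) and in 37.9% of all genes. CCGGAAG was found in 23.5% of members and 9.12% of all genes, GGGCGG in 44.1% and 35.9%, and the consensus palindrome of the factor Nrf1 in 5.88% and 0.977%. CATGTG occurred in 14.7% and 14.1%, CACGTG in 2.94% and 7.24%, TATAAA in 5.88% and 14.2%, TGANTCA in 2.94% and 7.93%, and TGACGTCA in 2.94% and 1.88%. None of these motifs overlaps the capitals of the chromosome 2 windows, while GGGCGG and, on the other strand, CCAAT lie in those of chromosome 4.

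Chromosomes 2 and 4 were then set against chromosomes 1 and 3. The 32 members on chromosomes 2 and 4 had a median difference of 0.022, with 19 higher and 13 lower in siDicer, and the 9 on chromosomes 1 and 3 one of -0.12, with 1 higher and 8 lower. The medians were -0.10, 0.0091, -0.13 and 0.031 on chromosomes 1, 2, 3 and 4. The gap between the pairs of chromosomes was 0.14 on average and 0.11, 0.12 and 0.18 at passages 47, 54 and 56. Over all tested genes the gap was -0.00071. Of those genes, 1409 were higher and 1689 lower on chromosomes 2 and 4, and 980 and 1155 on chromosomes 1 and 3. Without the clustered genes the gap of the members was 0.15, and 0.20, 0.14 and 0.12 at the passages. On chromosome 3, Zfp687 was the 1 gene of the 9 with a positive mean (0.024), which turned negative without siDicer at passage 47 (-0.026), and all 5 genes there were lower at passage 56. Genes are not replicates and the groups of 4 and 5 genes are small, so no p is given for these medians.

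**Figure D4:**
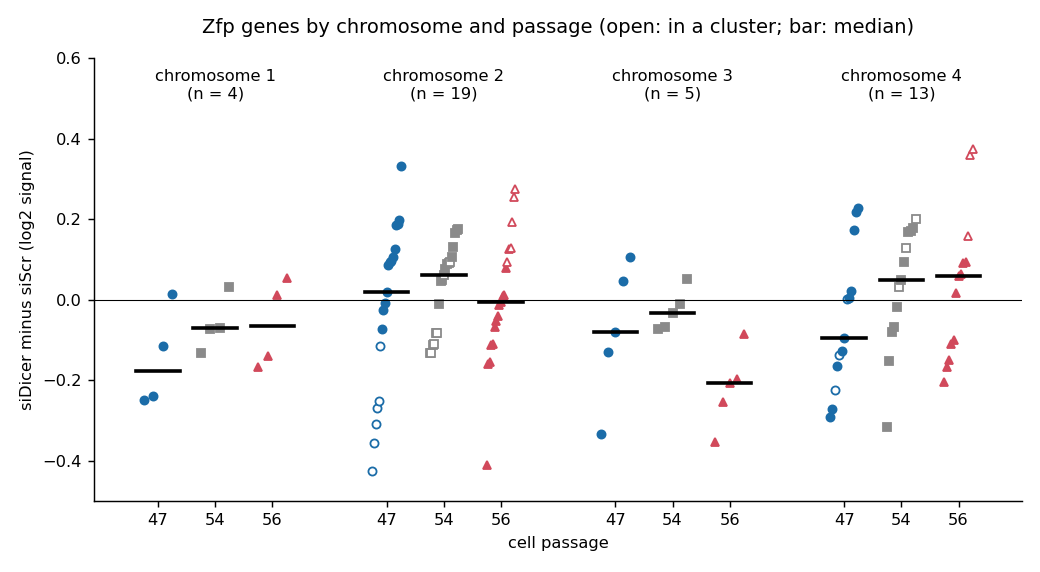
Difference in log2 signal, siDicer minus siScr (vertical), of each Zfp gene by chromosome and cell passage (horizontal), with open symbols for clustered genes and bars for medians. At passage 47 the open symbols of chromosome 2 lie below 0 and at passage 56 above it, and on chromosome 3 every symbol of passage 56 lies below 0.

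Across the 41 members, the differences at passages 47 and 54 had a Pearson correlation of 0.44, those at 54 and 56 one of 0.39, and those at 47 and 56 one of -0.15. Over the 32 members outside clusters the last was 0.32, and over all tested genes 0.22. These are correlations across genes measured on the same arrays and are given as a description.

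Of 48 co-repressor and heterochromatin genes that act with KRAB zinc finger proteins or on the same chromatin, 11 were tested. Of these 7 were higher and 4 lower (median 0.027), and none passed in either fit. Setdb1, the methyltransferase of this pathway and named for that role, differed by 0.030 ± 0.061 (SE), with 7.81, 7.74 and 7.80 in siDicer and 7.77, 7.73 and 7.77 in siScr. The 4 with the smallest p were the demethylase Kdm1a (-0.13), the methyltransferases Ehmt1 (0.12) and Suv39h2 (0.15), and Gatad2b of the NuRD complex (0.10). Their adjusted p values ran from 0.657 to 0.735 in limma.

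Among 70 tested zinc finger genes with other symbols, 23 were higher and 47 lower, with a median of -0.038. None passed without the block and 1 with it, a share below the 1.89% of all tested genes. This was Zbtb10, a repressor with a BTB domain that neighbours Zfp704, at 6.71, 6.91 and 6.90 in siDicer and 7.37, 7.30 and 7.24 in siScr. It was lower at each passage, by -0.66, -0.40 and -0.34, and fell by 0.46 ± 0.077 with passage as a block (SE, limma, adjusted p = 0.0327, against 0.124 without it). In the fit without the block, the next by p were Rlf (-0.25), Plagl2 (0.24) and Zbtb37 (-0.28), none of which passed. Lower at passage 47 and higher at passage 56 were 12 of the 70, and 20 had the opposite order. Over all tested genes these shares were 21.8% and 25.4%. Among the 12 was Rex2 on chromosome 4, named after its values were seen, with gaps of -0.26, 0.065 and 0.42 at passages 47, 54 and 56.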

How the data were processed

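The authors deposited log2 signals for 16383 transcript clusters on 6 arrays. The submitters' processing notes name Affymetrix Expression Console, without a version. How signals were normalised, and on which genome build, is not given in the sources used here. Clusters were named from the platform annotation; 7530 had 1 gene symbol, 455 several and 8398 none, and only the first were used. RefSeq (GRCm38.p6) updated 312 symbols, which named 4 members (Zfp971, Zfp972, Zfp512b and Zfp980). The row with the highest mean stood for a gene, and 2243 of 7476 genes under the 30th percentile were left out. Differences were tested over the remaining 5233 genes with limma 3.58.1 (R 4.3.3, lmFit and eBayes with a trend, two-sided, Benjamini-Hochberg, threshold 0.05), after a test on simulated data. The main fit had no block. The labels give both groups the same 3 passages, which pairs the arrays, and deviations from the group means correlated within passages at 0.42, 0.63 and 0.076. Members and lists were chosen with earlier results of these data known. The use of rows with exactly 1 symbol was settled after members' values had been seen; adding rows with several symbols of 1 gene gave 43 members. Genes named in the text had the largest differences of 1 sign at all passages (up to 10 a direction), the highest signals (5), the widest spread over passages (3), the largest difference on a chromosome, or lay next to the signal limit; clustered genes, and others where stated, were added after their values had been seen. The symbol rule for other zinc finger genes also took Glipr2, which is not one and was left out. Alternatives were other scalings, filters and row choices, array weights, no trend, and leaving out each array or passage.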

Additional observations from a re-analysis of the deposited data

How the results depend on the processing

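No Zfp gene passed the limma threshold in any of the 19 other settings tried, including the fit with passage as a replicate block, where 0 of 41 passed. The median difference of the members (-0.015) ranged from -0.058 to 0.0012 when arrays or passages were left out, the positive value coming without siScr at passage 47. The gap between chromosomes 2 and 4 and chromosomes 1 and 3 (0.14) ranged from 0.10 to 0.16 in the same settings. Array weights turned the sign of Zfp937 (0.012) and Zfp687 (-0.0077). Leaving out arrays or passages turned the sign of 11 named genes, none of them called. Their lowest and highest differences were -0.025 and 0.15 for Zfp462, -0.21 and 0.041 for Zfp971, -0.19 and 0.0065 for Zfp704, -0.0075 and 0.058 for Zfp663, and -0.026 and 0.079 for Zfp687. Of 31 named genes, 25 moved by over 1.5 times without a change of sign in at least 1 setting, among them Zfp512b, Zfp618 and Zfp600 (0.11 to 0.26, 0.068 to 0.21 and 0.042 to 0.30 with arrays or passages left out). For the other clustered genes they were -0.18 and 0.17 for Zfp937, -0.030 and 0.30 for Zfp980, -0.22 and 0.0060 for Zfp442, -0.13 and 0.051 for Zfp345, -0.035 and 0.15 for Zfp972, and -0.053 and 0.096 for Zfp991. Under other scalings, filters, choices of rows and the stricter cluster definition, the median of the clustered genes stayed below 0 at passage 47 (-0.31 to -0.14) and above 0 at passage 56 (0.13 to 0.28), and at passage 54 it went from -0.082 to 0.078. Over all tested genes, limma called 1 gene as reported, 14 with array weights and 99 with the replicate block; without replicate 1, 2 or 3 in both groups it called 0. With 3 arrays a group, an exact permutation test of 1 gene that ignores the pairing by passage cannot go below p = 0.1. One that keeps the pairs cannot go as low.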
